A study of Homo sapiens with 6 samples.

Results

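The extracellular matrix genes described here are 35 genes for collagen chains, laminin chains, matrix glycoproteins, proteoglycans and syndecans, chosen by name. All 35 were found by symbol among the 17513 genes of the deposited tables. RNA was sequenced in 6 libraries of macrophages that had been made from THP1 cells, a human monocytic leukemia line. They had spent 48 h in medium taken from KYSE150 cultures, a human tumor line from a squamous carcinoma of the esophagus. In the 3 libraries of the shNC group the KYSE150 cells carried the control hairpin shNC, and in the 3 of the shSPP1#2 group they carried shSPP1#2, a hairpin directed at SPP1 (osteopontin). The macrophages themselves carried neither hairpin, as the series describes them, and both groups received tumor cell medium. SPP1 RNA in these libraries therefore does not check the hairpin. Only 1 hairpin against SPP1 was used. The labels do not state separate cultures for the replicates, and the p-values then reflect only the spread between these libraries, which may be technical.

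The extracellular matrix is a network of collagen trimers, laminins and fibronectin, filled with proteoglycans and adjusted by matricellular proteins that signal rather than bear load. Fibroblasts make most of the fibrillar collagens of a tissue, whereas macrophages are better known for degrading and taking up matrix. Macrophages nonetheless secrete fibronectin and collagen VI, and carry syndecans, membrane proteoglycans that bind matrix and growth factors. A collagen molecule needs all chains of its trimer, so the chains are described here side by side.

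The sample labels name KYSE150, whereas the series describes macrophages, and the marker lists were therefore read first. Of 25 macrophage markers, 19 reached 1 FPKM (fragments per kilobase of transcript, scaled to library depth) in each library. LAPTM5, FCER1G and ITGAX were the most abundant, at 725 to 823, 346 to 457 and 281 to 314 FPKM. Below 1 FPKM in every library were MRC1 (0.010 to 0.030), C1QA, C1QB (0 to 0.090), C1QC, CD86 (0.13 to 0.24) and CYBB (0.57 to 0.93). The scavenger receptors MSR1, CD163 and MARCO lay above that level, at 16.7 to 23.4, 1.33 to 1.69 and 1.81 to 2.52 FPKM. Of 20 deposited squamous epithelial markers, 3 reached 1 FPKM in each library (KRT15, S100A2 and JUP, none above 4.01 FPKM), and EPCAM lay between 0 and 0.030 FPKM. Of 12 deposited endothelial markers, 5 or 6 reached 1 FPKM in a library, led by PECAM1, TIE1 and EGFL7 at 132 to 142, 39.9 to 48.2 and 6.74 to 8.12 FPKM, whereas CDH5 lay between 0 and 0.040 FPKM. In the comparison described further on, 0 of these markers were called by edgeR. At an unadjusted p under 0.05, 3 of 21 tested macrophage markers and 1 of 10 endothelial markers (TIE1) were lower in shSPP1#2 medium. Among all 13555 genes tested, 460 had such a p in that direction, and 6.85% in either direction. Groups did not overlap, with shSPP1#2 medium lower, for 4 of the 21 macrophage markers and 5.5% of all genes. The libraries held 18113591 to 20626346 estimated counts each. In bulk RNA, fewer cells making a gene and less RNA per cell cannot be told apart.

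The macrophages held SDC2, FN1 and collagen VI RNA at high level, whereas LUM, POSTN and COL5A1 were near 0. Interstitial genes did not share 1 level, since COL1A1 lay between 16.3 and 19.1 FPKM. As a list the 35 genes were spread over the levels much as all deposited genes were. Of the 35, 19 (54.3%) reached 1 FPKM in every library, beside 61.0% of all genes, and 14 (40.0%) stayed below 1 FPKM in every library, beside 35.2%. COL4A1 and THBS1 crossed that line in some libraries. A mean of at least 10 FPKM was reached by 11 genes (31.4%, beside 32.2% of all) and of at least 100 FPKM by SDC2, FN1 and COL6A1 (8.57%, beside 4.05%). These 3 made up 71.4% to 72.5% of the summed FPKM of the 35 genes in each library, and the 35 together held 0.329% to 0.339% of all FPKM. SDC2 ranked 133 and FN1 ranked 142 among all genes by mean FPKM, whereas 6 genes (COL5A1, COL8A1, COL12A1, COL17A1, LUM and POSTN) averaged below 0.1 FPKM (17.1%, beside 18.9% of all).

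**Figure D1:**
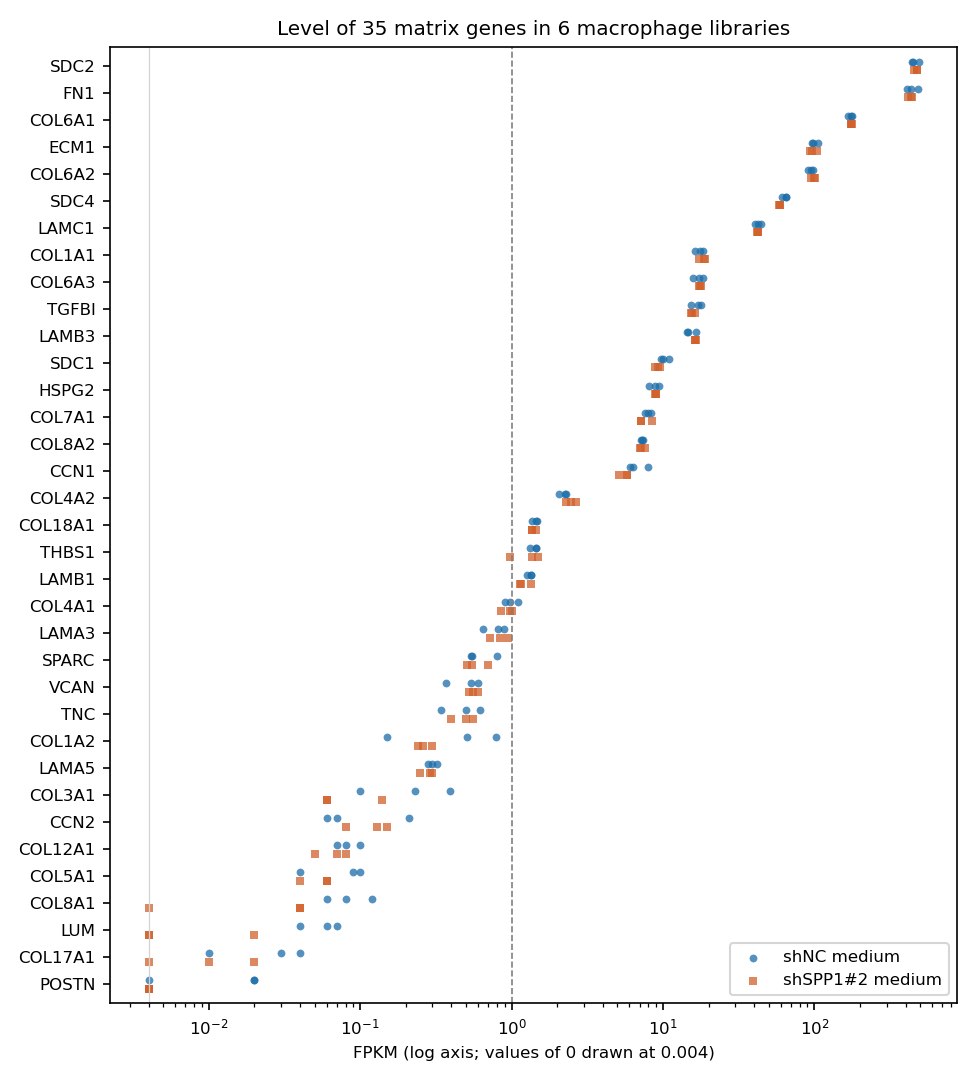
FPKM of each of the 35 matrix genes (log axis), with shNC medium libraries as circles and shSPP1#2 medium libraries as squares, ordered by mean level; the dashed line marks 1 FPKM, and values of 0 are drawn at 0.004. SDC2 and FN1 lie at 409 FPKM or more in all 6 libraries, and LUM and POSTN reach 0 in some.

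Among the secreted glycoproteins, FN1, which encodes the adhesive protein fibronectin, was the most abundant of the 35 after SDC2. In shNC medium it measured 409 (replicate 1), 481 (replicate 2) and 435 FPKM (replicate 3), and in shSPP1#2 medium 433, 441 and 412 FPKM in the same order. The highest and the lowest library both belonged to the shNC group, so the groups overlapped. Group means were 442 ± 36.0 and 429 ± 14.9 FPKM (SD, n = 3 each), and the edgeR log2 fold change, shSPP1#2 medium minus shNC medium, was -0.049 (95% interval -0.17 to 0.075, edgeR adjusted p = 0.922). FN1 (Entrez 2335) is annotated on chromosome 2 (minus strand, 215360440 to 215436172, GRCh38, GENCODE v29), and no other annotated gene shares its exonic bases. Its upstream stretch is shown because FN1 leads the secreted members. The 250 bases before the RefSeq start (GRCh38.p14, chr2:215436069-215436318, minus strand, from the RefSeq promoter table) are printed 5′ to 3′, with capitals marking the cAMP response element TGACGTCA and the CCAAT box.
FN1 upstream: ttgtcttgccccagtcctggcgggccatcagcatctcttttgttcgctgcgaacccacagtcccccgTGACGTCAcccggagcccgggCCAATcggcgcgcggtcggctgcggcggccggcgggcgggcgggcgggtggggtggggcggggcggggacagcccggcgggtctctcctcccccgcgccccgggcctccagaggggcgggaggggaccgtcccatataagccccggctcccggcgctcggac

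In that stretch TGACGTCA begins at position -183 and CCAAT at -162 from the RefSeq start, and GGGCGG, the GC box, occurs at 6 positions, some of them overlapping each other. Searched on both strands of the same 250-base window, TGACGTCA was found in 1.77% of 27303 genes' promoters and, among the 27 matrix genes with a window, in FN1 only. CCAAT was found in 33.0% of all and in 6 of the 27 (CCN2, COL17A1, COL4A1, COL4A2, FN1 and THBS1). GGGCGG was found in 42.3% of all and in 23 of the 27, and TATAAA in 11.1% of all and in 6 of the 27. These are matches of letters and say nothing about what binds there. The 6 genes with CCAAT lay at both ends of the range, from FN1 to COL17A1, which averaged 0.018 FPKM.

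ECM1, a secreted glycoprotein that binds perlecan and other matrix proteins, and TGFBI, an adhesion protein induced by TGF-beta that binds integrins and collagens, were also made. ECM1 measured 97.4, 105 and 97.1 FPKM in shNC replicates 1 to 3 and 97.0, 103 and 93.8 FPKM in shSPP1#2 replicates 1 to 3, with overlapping groups. TGFBI measured 16.9, 17.9 and 15.4 FPKM in the shNC libraries and 15.4, 16.3 and 15.5 FPKM in the shSPP1#2 libraries, also overlapping. Their log2 fold changes were -0.029 (-0.14 to 0.080) and -0.091 (-0.22 to 0.039), with edgeR adjusted p-values of 0.956 and 0.845. Other glycoproteins were low. THBS1 (thrombospondin, an adhesive protein that activates latent TGF-beta) lay between 0.97 and 1.5 FPKM, SPARC (a collagen-binding matricellular protein) between 0.51 and 0.80 FPKM and TNC (tenascin, a matrix protein of wounds and tumors) between 0.34 and 0.62 FPKM. POSTN, or periostin, a product of activated fibroblasts, had 1, 0 and 1 counts in the shNC libraries and 0 in each shSPP1#2 library. Both POSTN sums lie under a floor of 3 counts over a group, so no fold is given.

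Collagen VI, the beaded filament that anchors cells to the surrounding matrix, had all chains of its usual trimer above 15 FPKM in every library. COL6A1 measured 175, 166 and 178 FPKM in shNC replicates 1 to 3 and 174, 178 and 174 FPKM in shSPP1#2 replicates 1 to 3. COL6A2 measured 95.5, 91.4 and 97.5 FPKM and then 98.9, 102 and 95.3 FPKM. COL6A3, whose chain is the longest and carries the C-terminal fragment endotrophin, measured 17.4, 15.7 and 18.4 FPKM and then 17.8, 17.2 and 17.6 FPKM. For each chain shNC replicate 2 was the lowest library, and the groups overlapped. The chains were not equally abundant per length: COL6A1 stood 1.75 to 1.83 times above COL6A2 and 9.67 to 10.6 times above COL6A3, over all 6 libraries. COL6A5, which can replace COL6A3, stayed at or below 0.10 FPKM. COL6A1 and COL6A2 are neighbors on the plus strand of chromosome 21 (45981737 to 46005050 and 46098097 to 46132849, GENCODE v29), and COL6A3 lies on chromosome 2. The log2 fold changes were 0.016 (-0.076 to 0.11) for COL6A1, 0.052 (-0.044 to 0.15) for COL6A2 and 0.029 (-0.076 to 0.13) for COL6A3 (edgeR adjusted p = 0.974, 0.893 and 0.955).

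**Figure D2:**
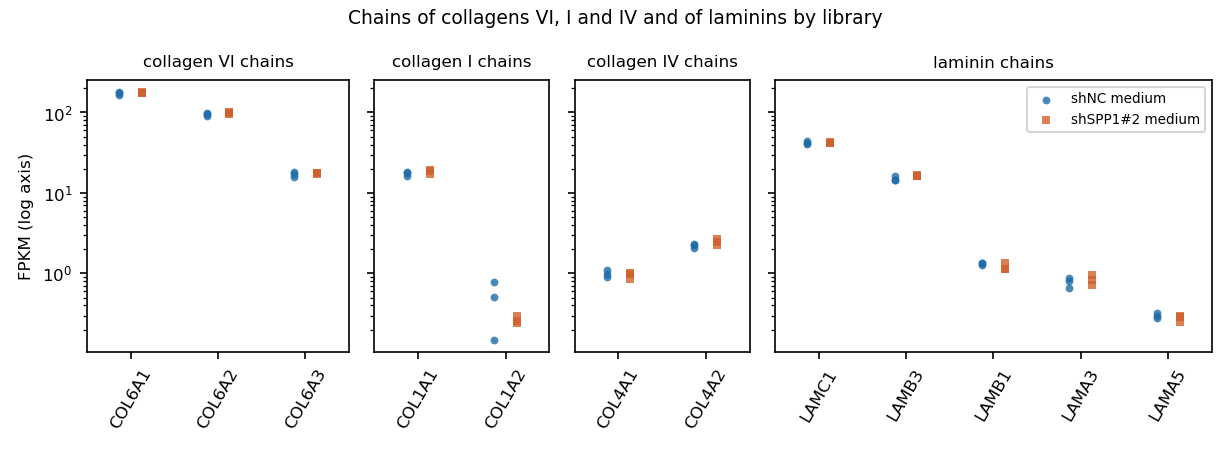
FPKM (log axis) of the chains of collagens VI, I and IV and of 5 laminin chains, with 3 shNC medium libraries as circles and 3 shSPP1#2 medium libraries as squares for each gene. COL1A1 lies between 16.3 and 19.1 FPKM in every library, and its partner COL1A2 does not reach 0.80 FPKM in any.

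Collagen I, the main fibrillar collagen of skin, bone and scar, is usually a trimer of COL1A1 and COL1A2 chains, and here the chains stood far apart. COL1A1 measured 17.6, 16.3 and 18.4 FPKM in shNC replicates 1 to 3 and 17.2, 19.1 and 18.6 FPKM in shSPP1#2 replicates 1 to 3. COL1A2 measured 0.15, 0.51 and 0.79 FPKM and then 0.26, 0.24 and 0.30 FPKM. COL1A1 was thus 23.3 to 117 times above COL1A2 in a library, and this ratio moved with COL1A2, not with COL1A1. The log2 fold change of COL1A1 was 0.064 (-0.046 to 0.17, edgeR adjusted p = 0.886), with overlapping groups. COL1A1 lies on the minus strand of chromosome 17 (50183289 to 50201632) and COL1A2 on the plus strand of chromosome 7 (94394561 to 94431232, GENCODE v29), and neither shares exonic bases with another annotated gene. COL3A1, the fibrillar collagen of vessels and granulation tissue, measured 0.10, 0.23 and 0.39 FPKM and then 0.14, 0.060 and 0.060 FPKM. COL5A1, which nucleates collagen fibrils, stayed at or below 0.10 FPKM in all libraries.

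COL3A1 and COL1A2 were the matrix genes of largest difference and of fewest counts among those with an unadjusted p under 0.05. COL3A1 had 11, 23 and 44 counts in shNC replicates 1 to 3 and 16, 7 and 7 in shSPP1#2 replicates 1 to 3. COL1A2 had 15, 46 and 82 counts and then 27, 24 and 31. In both genes shNC replicate 1 lay below shSPP1#2 replicate 1 and shNC replicate 3 was the highest, so the groups overlapped. The log2 fold change of COL3A1 was -1.42 (-2.36 to -0.48, edgeR unadjusted p = 0.0053, adjusted p = 0.512), and it was -0.85 without shNC replicate 3. That of COL1A2 was -0.85 (-1.65 to -0.059, edgeR adjusted p = 0.690), and it was -0.26 without shNC replicate 3, -1.30 without shNC replicate 1. Over these and 5 further interstitial genes with few counts (COL5A1, COL8A1, COL12A1, LUM and POSTN, grouped after their values were seen), the summed counts were 55, 111 and 175 in the shNC libraries and 74, 55 and 61 in the shSPP1#2 libraries. Relative to library totals, 4 of the 7 genes were highest in shNC replicate 3, 2 in shNC replicate 2 and 1 in shNC replicate 1. Because the 7 were grouped after their values were seen, neither sums nor peaks test a difference between the media. Other members below 1 FPKM had similar sums in the shNC and shSPP1#2 groups: 187 and 178 counts for TNC, 125 and 122 for SPARC, 290 and 308 for VCAN.

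**Figure D3:**
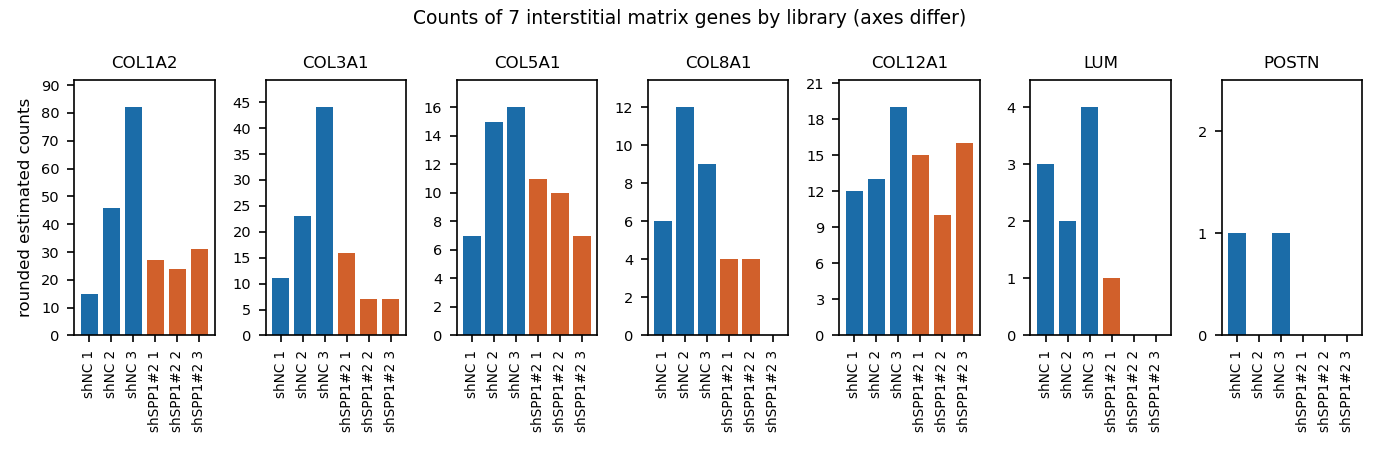
Rounded estimated counts of 7 interstitial matrix genes in each of the 6 libraries, shNC medium in blue and shSPP1#2 medium in orange, on axes that start at 0 and differ in range. COL1A2 and COL3A1 are highest in shNC replicate 3, at 82 and 44 counts, and POSTN has 1 count in each of 2 shNC libraries.

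Markers of fibroblasts, the usual source of these collagens, were read in the same libraries. Of 15 deposited fibroblast markers (17 listed), 5 or 6 reached 1 FPKM in a library, led by S100A4, TWIST1 and FAP at 271 to 418, 31.4 to 35.3 and 7.08 to 9.72 FPKM. Their summed level was 346 to 475 FPKM in the shNC group and 325 to 359 FPKM in the shSPP1#2 group, most of it S100A4, which macrophages also express and which was the 1 marker of 9 tested with an unadjusted p under 0.05 (edgeR adjusted p = 0.583). DCN, THY1 and OGN, stromal genes named after their values were seen, were at or near 0, whereas PDGFRA and PDGFRB were not. DCN, the proteoglycan decorin, measured 0.040, 0.080 and 0.11 FPKM in shNC replicates 1 to 3 and 0.020, 0.060 and 0.020 FPKM in shSPP1#2 replicates 1 to 3, on at most 10 counts a library. THY1 measured 0.080, 0.060 and 0.16 FPKM and then 0.11, 0.040 and 0 FPKM. Of the 15 markers, 4 were highest in shNC replicate 3 (DCN and THY1 among them), where COL1A2 and COL3A1 were highest. In shNC replicate 2 there were 7, in shSPP1#2 replicate 3 there were 4 and in shSPP1#2 replicate 2 there was 1, with 1 tie. Some of these peaks rest on few counts, with MEOX2 and OGN at 1 count and MXRA5 at 3 in their highest library. The tally therefore cannot show whether fibroblast RNA followed the collagens. FBLN1 was at its lowest in shNC replicate 3, at 0.020 FPKM on 1 count. The part of other cells in the low collagen counts was not tested. PDGFRA and PDGFRB, growth factor receptors used as stromal markers, were present at 7.58 to 9.03 and 3.24 to 4.18 FPKM.

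Basement membrane genes were made unevenly, with laminin chains spread over a wide range. LAMC1, the gamma chain of most laminins, measured 40.8, 42.1 and 44.2 FPKM in shNC replicates 1 to 3 and 42.7, 42.2 and 41.9 FPKM in shSPP1#2 replicates 1 to 3. LAMB3, the beta chain of the epithelial laminin, measured 14.6, 14.5 and 16.5 FPKM and then 16.2, 16.6 and 16.4 FPKM. The groups overlapped for both, with log2 fold changes of -0.0090 (-0.10 to 0.085) and 0.079 (-0.031 to 0.19; edgeR adjusted p = 0.986 and 0.838). LAMB1, the beta chain of the widespread laminins, lay between 1.13 and 1.35 FPKM. The alpha chains, which bind integrins, were lower still: LAMA3 between 0.65 and 0.95 FPKM and LAMA5 between 0.25 and 0.32 FPKM. LAMC1 therefore stood 44.1 to 64.8 times above LAMA3. HSPG2, or perlecan, the large heparan sulfate proteoglycan of basement membranes, measured 8.05 to 9.44 FPKM, and COL18A1, the source of endostatin, 1.36 to 1.47 FPKM. Exons of the opposite-strand genes LDLRAD2 and SLC19A1 cover 11.7% of the exonic bases of HSPG2 and 16.4% of those of COL18A1, and counts there are uncertain, since it is not known whether strand was used.

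Collagen IV, the sheet-forming collagen of basement membranes, was near the 1 FPKM line, and its chains offer a pair of members with a shared upstream stretch. COL4A2 measured 2.27, 2.06 and 2.30 FPKM in shNC replicates 1 to 3 and 2.67, 2.45 and 2.28 FPKM in shSPP1#2 replicates 1 to 3. COL4A1 measured 1.11, 0.97 and 0.91 FPKM and then 1.0, 0.98 and 0.85 FPKM. The genes lie head to head on chromosome 13, with RefSeq starts at 110307157 (COL4A1, minus strand) and 110307284 (COL4A2, plus strand). The 126 bases between these starts (GRCh38.p14, chr13:110307158-110307283, plus strand, from the RefSeq promoter table) follow, shown because both chains are read from here in opposite directions; capitals mark CCAAT and GGGCGG.
COL4A1 to COL4A2: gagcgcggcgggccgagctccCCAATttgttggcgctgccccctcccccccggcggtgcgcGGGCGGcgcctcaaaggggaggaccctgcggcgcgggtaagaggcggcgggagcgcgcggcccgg

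Per length, COL4A2 stood 2.05 to 2.68 times above COL4A1. The log2 fold change was 0.15 for COL4A2 (-0.027 to 0.33) and -0.12 for COL4A1 (-0.38 to 0.15), of opposite sign, with edgeR adjusted p-values of 0.786 and 0.907. The groups overlapped for both chains, since shSPP1#2 replicate 3 lay within the shNC range for COL4A2. The antisense genes COL4A2-AS1 and COL4A2-AS2 cover 0.42% and 0.073% of the exonic bases of COL4A2.

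The remaining collagens of the list split by chain. COL7A1, which forms the anchoring fibrils under squamous epithelium, measured 7.59, 8.02 and 8.36 FPKM in shNC replicates 1 to 3 and 7.16, 7.15 and 8.46 FPKM in shSPP1#2 replicates 1 to 3. COL8A2, a network collagen of the cornea and vessel wall, lay between 7.01 and 7.66 FPKM, whereas its relative COL8A1 had 6, 12 and 9 counts in the shNC libraries and 4, 4 and 0 in the shSPP1#2 libraries. The COL8A1 sums were 27 and 8 counts, a ratio of 0.287 (95% counting interval 0.113 to 0.649), which covers counting error only. COL12A1, a collagen associated with fibrils, and COL17A1, the hemidesmosome collagen of keratinocytes, had at most 19 and 4 counts in a library. LUM, the keratan sulfate proteoglycan lumican, had 3, 2 and 4 counts and then 1, 0 and 0. Its shSPP1#2 sum of 1 count lies under the floor of 3 counts over a group, so no fold is given. COL8A1, COL17A1, LUM, POSTN and CCN2 did not pass the low-count filter of the reported edgeR fit and have no test there. DESeq2 fitted all 35 genes.

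Syndecans, the membrane proteoglycans of the list, were all made and were ordered SDC2, SDC4, SDC1 in each library. SDC2 measured 487, 447 and 441 FPKM in shNC replicates 1 to 3 and 480, 476 and 456 FPKM in shSPP1#2 replicates 1 to 3, with overlapping groups and a log2 fold change of 0.035 (-0.068 to 0.14, edgeR adjusted p = 0.939). SDC4, a focal adhesion syndecan, measured 64.8, 65.0 and 61.2 FPKM and then 59.6, 59.2 and 58.2 FPKM, and here each shSPP1#2 library lay below each shNC library. The means were 63.7 ± 2.13 and 59.0 ± 0.73 FPKM (SD, n = 3 each), and the log2 fold change was -0.11 (-0.21 to -0.022, edgeR unadjusted p = 0.0184, adjusted p = 0.633). SDC1, the syndecan of epithelia and plasma cells, measured 9.63, 11.0 and 9.95 FPKM and then 9.28, 9.57 and 8.92 FPKM, with a log2 fold change of -0.14 (-0.29 to 0.00070, edgeR adjusted p = 0.732). In FPKM the SDC1 groups lay just apart (9.57 against 9.63), but they overlapped on TMM-scaled CPM (counts scaled to library size), where shSPP1#2 replicate 2 (30.3) lay above shNC replicate 1 (30.1). The ratio of SDC2 to SDC4 ran from 6.88 to 8.05 over all 6 libraries, a description with no test. VCAN, or versican, a chondroitin sulfate proteoglycan of inflamed tissue, lay between 0.37 and 0.60 FPKM.

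The matricellular CCN genes, targets of YAP and TGF-beta signaling in many cells, differed from each other. CCN1 measured 6.31, 7.97 and 6.04 FPKM in shNC replicates 1 to 3 and 5.10, 5.77 and 5.82 FPKM in shSPP1#2 replicates 1 to 3. Each shSPP1#2 library lay below each shNC library, by a narrow gap from 6.04 to 5.82 FPKM, and shNC replicate 2 stood highest. The log2 fold change of CCN1 was -0.29 (-0.51 to -0.066, edgeR unadjusted p = 0.0136, adjusted p = 0.618), and it was -0.15 without shNC replicate 2. CCN2 was near 0, with 16 counts over the shNC group and 17 over the shSPP1#2 group.

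**Figure D4:**
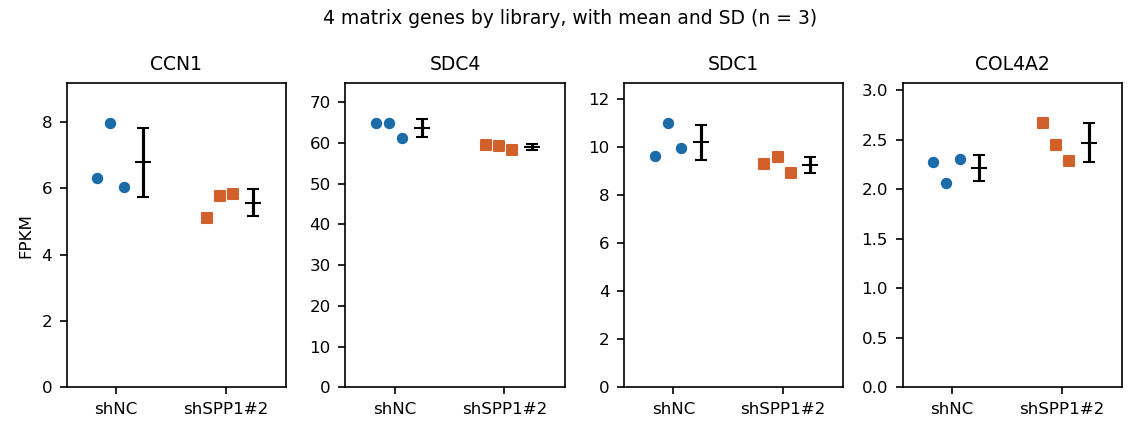
FPKM of CCN1, SDC4, SDC1 and COL4A2 in each library (circles for shNC medium, squares for shSPP1#2 medium), with the mean and SD of 3 libraries as a bar beside the points, on axes that start at 0. The groups do not overlap for CCN1, SDC4 and, narrowly, SDC1, and for COL4A2 they do.

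No matrix gene differed between the media beyond the spread of the libraries after adjustment. The comparison asks how macrophages differ when the tumor cells that conditioned their medium carried a hairpin against SPP1. Of the 30 matrix genes tested, 0 passed an edgeR adjusted p below 0.05, as did 0 (0%) of all 13555 genes tested. At an unadjusted edgeR p under 0.05 there were 4 of the 30 (COL3A1, CCN1, SDC4 and COL1A2), each lower in shSPP1#2 medium. Such a p was held by 6.85% of all genes in either direction, and by 460 of the 13555 with shSPP1#2 medium lower. COL3A1 passed the low-count filter through the shNC libraries, where it is higher, and was not tested where a CPM of at least 1 in 3 libraries was asked, which left 27 of the 35 tested and 3 at such a p. DESeq2 gave an adjusted p to 12 of the 35, called 0 of these and called 0.305% of all genes it adjusted. Its genes at an unadjusted p under 0.05 were COL3A1, COL8A1, CCN1 and SDC4, and COL1A2 was not among them. A fit with the replicate number as a block called 0 matrix genes and 0.435% of all genes. On TMM-scaled CPM, groups did not overlap for 2 of the 30, CCN1 and SDC4, both lower in shSPP1#2 medium, beside 5.5% of all genes that lay apart in that direction. The median log2 fold change of the 30 was -0.066, with 10 positive and 20 negative, and that of all genes was -0.00030.

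The intervals show how large a difference these libraries leave room for. The 95% interval lay within 0.25 of 0 on the log2 scale for 15 of the 30 genes, within 0.5 for 23 and within 1 for 27. The 3 others were COL1A2, COL3A1 and COL5A1, each below 0.80 FPKM in every library. For FN1, SDC2, LAMC1 and the 3 collagen VI genes, no bound lay farther from 0 than the -0.17 of FN1. The sign of the difference turned for COL6A1, COL6A3, FN1, LAMC1 and ECM1 when single libraries were left out, each time to a value nearer to 0 than 0.03. The median without shNC replicate 2 was -0.023, and without shSPP1#2 replicate 3 it was -0.025. With limma it was -0.018 on log2(FPKM + 1) and -0.025 on log2(FPKM + 0.1), scales that shrink the differences of low genes, and with 1 CPM asked in 3 libraries it was -0.036.

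**Figure D5:**
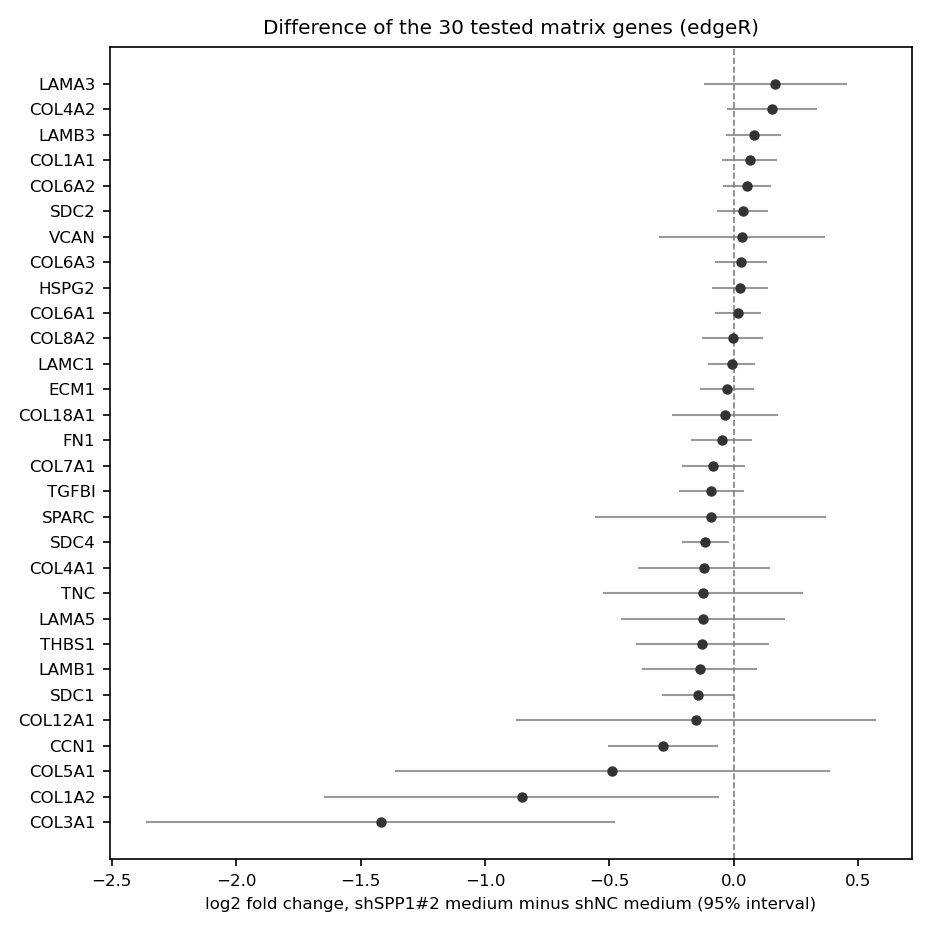
Log2 fold change (shSPP1#2 medium minus shNC medium) of the 30 tested matrix genes with its 95% interval from the edgeR fit, ordered by size. The intervals of COL3A1, COL1A2, CCN1 and SDC4 do not cross 0, none of the 30 passes adjustment over all genes, and COL3A1 has the widest interval, from -2.36 to -0.48.

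Genes that fold, modify and crosslink collagen were plentiful. Of 31 such genes, 25 reached 1 FPKM in every library, beside 61.0% of all genes. They were led by P4HB, a subunit of prolyl hydroxylase and a disulfide isomerase, at 595 to 682 FPKM. The isomerase PPIB followed at 399 to 454 FPKM and the prolyl hydroxylase P3H1 at 131 to 135 FPKM. The collagen chaperone SERPINH1 measured 55.1 to 62.1 FPKM and the lysyl oxidase LOX, which crosslinks collagen, 2.55 to 3.33 FPKM. Of 28 tested, edgeR called 0 in either direction, with 3 at an unadjusted p under 0.05 (2 higher, 1 lower, beside 6.85% of all genes) and a median log2 fold change of 0.019. P3H4, a partner in collagen hydroxylation, and LOX had the smallest p-values, at log2 fold changes of 0.29 (0.065 to 0.51) and 0.24 (0.045 to 0.43), with edgeR adjusted p-values of 0.618 and 0.633.

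Among collagen chains outside the 35, a few were abundant. Of 28 deposited (29 listed), 7 reached 1 FPKM in every library, beside 61.0% of all genes. COL9A2, a chain of the cartilage collagen IX, measured 151 to 172 FPKM. The other collagen IX chains were low, with COL9A1 at 0 to 0.020 FPKM and COL9A3 at 0.11 to 0.28 FPKM. COL22A1, a collagen of tissue junctions, measured 134 to 149 FPKM and the transmembrane collagen COL23A1 42.2 to 44.9 FPKM. COL5A2, the partner of COL5A1 in collagen V, lay at 0.090 to 0.17 FPKM. Of 15 tested, edgeR called 0, and DESeq2 called 0 of the 3 it gave an adjusted p, with 0 at an unadjusted edgeR p under 0.05 and a median log2 fold change of -0.031. The smallest p-values were those of COL22A1, at -0.080 (-0.17 to 0.012), and COL19A1, at 0.21 (-0.069 to 0.49), with edgeR adjusted p-values of 0.782 and 0.824.

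Of 58 deposited matrix glycoproteins and proteoglycans outside the 35 (61 listed), 20 reached 1 FPKM in every library, beside 61.0% of all genes. SRGN, or serglycin, the granule proteoglycan of blood cells, measured 625 to 690 FPKM, the glypican GPC4 194 to 206 FPKM and the basement membrane proteoglycan AGRN 39.9 to 42.9 FPKM. Of 35 tested, edgeR called 0, and DESeq2 called 0 of the 8 it gave an adjusted p, with 0 at an unadjusted edgeR p under 0.05 and a median log2 fold change of -0.036. EFEMP2, a fibulin of elastic fibers, and TNXB, a tenascin, had the smallest p-values, at 0.19 (-0.0030 to 0.38) and 0.16 (-0.0090 to 0.33), with edgeR adjusted p-values of 0.732 and 0.746.

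Of 33 deposited matrix receptors (34 listed), 21 reached 1 FPKM in every library, beside 61.0% of all genes. They were led by the fibronectin receptor chain ITGA5 at 399 to 447 FPKM, the hyaluronan receptor CD44 at 397 to 416 FPKM and ITGB1, the integrin chain that pairs with ITGA5, at 243 to 253 FPKM. Of 28 tested, edgeR called 0, and DESeq2 called 0 of the 14 it gave an adjusted p, with 0 at an unadjusted edgeR p under 0.05 and a median log2 fold change of 0.0093. ITGAV and the tetraspanin CD151 had the smallest p-values, at 0.069 (-0.023 to 0.16) and -0.076 (-0.18 to 0.032), with edgeR adjusted p-values of 0.823 and 0.845.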

How the data were processed

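Per the labels' protocols, the 6 libraries were made from polyadenylated RNA and read on DNBSEQ instruments. The authors deposited estimated counts per gene, not scaled, and FPKM values per gene (17513 genes, 1 column per library). The tools HISAT2 2.0.4, Bowtie2 2.2.5 and RSEM and the build GRCh38.p13 come per the submitters' processing notes, where neither role nor order is stated. Which annotation was used, any filters and the use of strand: not given in the sources used here. From the FPKM values, 20 stray lines of text were dropped.

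Estimated counts were rounded, filtered with filterByExpr (13555 genes kept) and normalized by TMM. Groups were compared by the quasi-likelihood test of edgeR 4.0.16 in R 4.3.3, with no block and with Benjamini-Hochberg adjustment over all genes tested. The fit was checked on simulated counts. Calls required an adjusted p below 0.05. Intervals at 95% come from that fit, and counting intervals are exact and cover counting error only. Named in every library were genes with a mean of at least 10 FPKM and the 6 of smallest p; of each related list, the 3 most abundant and 2 of smallest p, and of each marker list the 3 most abundant. Other genes were chosen after their values were seen, among them COL4A1, COL7A1, DCN and THY1. The 35 genes and all lists were chosen with earlier results of these data known. Alternatives were RLE and upper-quartile scaling, leaving low counts unfiltered or asking for 1 CPM in 3 libraries, DESeq2 1.42.0, limma 3.58.1 on log2(FPKM + 1) and log2(FPKM + 0.1), a replicate block, each library left out, and other FPKM thresholds. Plots were drawn with matplotlib 3.10.9.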

Additional observations from a re-analysis of the deposited data

How the results depend on the processing

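The count of matrix genes called stayed at 0 under all 14 alternatives, as did that of the related lists. Over all genes, 0 were called in the reported fit, 18 without a low-count filter, 13 with DESeq2, 2 with limma on log2(FPKM + 0.1) and 59 with the replicate block. With single libraries left out, 1 to 10 genes were called, and the log2 fold change ranged from -0.0078 to 0.036 for COL6A1, -0.022 to 0.080 for COL6A3, -0.10 to 0.024 for FN1, -0.041 to 0.021 for LAMC1 and -0.079 to 0.015 for ECM1. Without a change of sign it ranged from 0.023 to 0.11 for COL1A1, 0.020 to 0.087 for COL6A2, 0.044 to 0.13 for LAMB3, -0.15 to -0.036 for TGFBI, 0.0066 to 0.075 for SDC2, -0.14 to -0.093 for SDC4, -0.18 to -0.089 for SDC1, 0.093 to 0.22 for COL4A2, -1.92 to -0.85 for COL3A1, -1.30 to -0.26 for COL1A2 and -0.36 to -0.15 for CCN1. The cause of these differences was not tested. The first 5 genes turned in sign without 1 library and were never called: COL6A1, COL6A3, FN1 and ECM1 without shNC replicate 2, LAMC1 without shNC replicate 3, COL6A1 without shSPP1#2 replicate 2 (-0.0023), and LAMC1 and ECM1 without shSPP1#2 replicate 3 (0.0075 and 0.012). The replicate block changed no other call. Same-numbered libraries deviated together with correlations of 0.194, 0.286 and 0.0892 across 10616 genes. Differently numbered libraries had correlations from -0.260 to 0.117, and shSPP1#2 replicate 3 correlated best with shNC replicate 1 (0.117). These values do not settle whether the numbers pair the samples. The reported fit had no block because the labels name no shared culture behind a replicate number. The 19 genes at 1 FPKM or more in every library became 23 at 0.5 FPKM, 17 at 2 FPKM, 23 on a per-million scale and 20 by the mean. COL1A2 and COL3A1 had wide intervals, and their counts differed several-fold within the shNC group.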
